A study of Mus musculus with 12 samples.

Results

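The transcripts described here are known on the array only by where they lie in the genome. Of 55681 non-control probes, 16194 were named by a genome interval and by no transcript accession. After 577 probes on the X and Y chromosomes were left out, 15617 remained, and 7779 of them were kept because at least 1 group had them well above background on each of its 3 arrays. Of these, 7763 were tested, 16 were not tested because of an outlier flag on an array, and 5847 lay well above background on all 12 arrays. The intervals are often called intergenic, but they carry no gene annotation in the files, and whether each lies between genes was not checked here.

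Long intergenic noncoding RNAs are transcripts of the stretches between protein-coding genes. They are usually spliced and polyadenylated like messenger RNAs, tend to be less abundant and more restricted to particular cell types, and many stay in the nucleus. Some act on transcription near their own locus, others bind proteins or other RNAs, and for most no function is known. Cells that sense viral RNA induce such transcripts along with interferon and interferon-stimulated genes.

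RNA came from mouse embryonic fibroblasts, cells of the connective tissue cultured from embryos, and each sample was hybridised to 1 Agilent single-colour array. The 4 groups were wild-type cells left untreated, wild-type cells given poly(I:C), GADD34ΔC/ΔC cells left untreated and GADD34ΔC/ΔC cells given poly(I:C), with 3 arrays each. Poly(I:C) is made of paired inosine and cytidine strands and is recognised by the receptors that detect viral RNA. The high molecular weight form was transfected with a lipid reagent at 2.5 µg/ml for 6 h, and no sample given the lipid alone was analysed here. GADD34 is the product of Ppp1r15a and directs protein phosphatase 1 to the translation factor eIF2α. The labels name the ΔC allele without locating the deletion, and GADD34ΔC/ΔC is written ΔC from here on. The labels do not say how many embryos or cell lines stand behind a genotype, so that p-values measure the spread between these arrays, which may be technical. Cells were lysed with a mild detergent and the RNA was taken from what stayed in solution after brief centrifugation; the share of nuclear RNA was not measured.

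Levels are log2 intensities relative to the 75th percentile of each array, so that 0 marks a bright probe, and a level of 1 probe is not compared with that of another. Between 60.4 and 67.3% of all probes and between 46.5 and 55.9% of the position-named probes were well above background, depending on the array. Ppp1r15a, which checks the labels, was well above background on all 3 untreated wild-type arrays and on none of the 3 untreated ΔC arrays, where it was at least 485-fold lower, by the bound defined with the first comparison (limma adjusted p = 7.69e-05). After poly(I:C) it read 5.79, 5.83 and 5.81 in wild-type and -4.12, -8.14 and -7.20 in ΔC cells. Of these treated arrays, all 3 wild-type ones and 1 ΔC one were well above background. Ifit1, an interferon-stimulated gene, rose by 8.53 ± 0.47 (SE, n = 3 per group) on the log2 scale with poly(I:C) in wild-type and by 5.44 ± 0.47 in ΔC cells. It read 6.80, 6.74 and 5.71 on the treated wild-type and 4.85, 4.60 and 3.77 on the treated ΔC arrays. In both genotypes the third treated array was the lowest for Ifit1 and for Isg15, Rsad2 and Cxcl10, which also check the treatment. Of 10 fibroblast marker genes, 9 lay well above background on all 12 arrays. So did 5 of 5 leukocyte, 2 of 5 epithelial and 2 of 4 endothelial markers with a probe, so that detection alone did not single out fibroblasts. The first principal component of the position-named probes (32% of their variance) parted the genotypes.

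The 15617 probes on autosomes fell into 3390 intervals on mouse build mm9 (NCBI37), with a median of 3 and at most 20 probes per interval. The intervals spanned 62 to 7128487 bp, with a median of 7451 bp, and 2126 loci remained after overlapping intervals were merged. Names of 7890 probes ended in F and of 7714 in R, read here as the forward and the reverse strand, which the files do not define, and 13 had no suffix. In 1042 intervals there were probes with either suffix. Probes of an interval, and of overlapping intervals, may share a target, which was not checked, and are not replicates of a condition.

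Position-named probes were detected less often than the other probes on the array. In untreated wild-type cells 7041 of 15617 (45.1%) lay well above background on all 3 arrays, against 64.1% of the 39487 probes with other names. The share was 44.7% in untreated ΔC cells, 42.5% in wild-type cells after poly(I:C) and 42.4% in ΔC cells after poly(I:C), while that of the other probes lay between 63.6 and 64.8% in those groups. No group detected 7838 of the position-named probes (50.2%), and exactly 1 group detected 657 (4.21%). Untreated wild-type cells alone detected 267 of these, wild-type cells after poly(I:C) alone 76, untreated ΔC cells alone 189 and ΔC cells after poly(I:C) alone 125. By interval length, 41.9% of probes were kept for intervals up to 1000 bp, 51.3% from there to 10000 bp, 51.9% up to 50000 bp and 49.0% above that. Of the intervals with probes of either suffix, 758 kept probes on both strands, 240 on 1 strand and 44 on none.

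The first comparison asked which position-named transcripts respond to transfected poly(I:C) in wild-type cells. The largest rises came from a single stretch of chromosome 1. Between positions 175653557 and 175717250, 4 intervals held 22 tested probes and 21 of them rose, where 3.59% of all probes rose. The stretch was drawn around the probes with the largest rises and its intervals overlap in part, so that this share is not a test. Other rises by more than 4 on the log2 scale lay elsewhere on chromosome 1 and on chromosomes 2, 3, 6, 7, 8, 11, 12, 13 and 17, and 7 of the 41 falls reached 2-fold. The bound "at least N-fold" is given where a probe lay well above background on no array of the lower group. It sets the mean of the higher group against the lower group in which each array that lay lower is raised to its own lowest well-above-background signal.

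In total, 192 position-named probes in 115 intervals rose and 41 in 31 intervals fell in wild-type cells, 3.00% of those tested, against 4.17% of all 35200 probes tested (limma, Benjamini-Hochberg over all probes). The rises were 2.47% and the falls 0.528% of the position-named probes, against 3.59% and 0.580% of all probes. Since a probe could be kept through the group in which it was high, the same counts are given for probes detected on all 12 arrays: 110 of 5847 rose (1.88%) and 35 fell (0.599%), against 2.98% and 0.601% of all such probes. By 2-fold or more, 170 rose and 7 fell. The median log2 change was -0.23, against -0.17 for all probes. The groups did not overlap for 466 probes that were higher and 1092 that were lower, where over all probes 9.49% were higher and 17.2% lower. The rises were 82.4% of the calls, and 93.8% (183 against 12) with each array scaled to its median. Chromosome 1 held 36 of the rises, 21 of them in the stretch described above. The calls numbered 132, 149 and 389 without wild-type untreated 1, 2 or 3, and 118, 127 and 496 without wild-type poly(I:C) 1, 2 or 3. Falls were the most affected, at 4 to 11 without 1 of the arrays numbered 1 or 2 and at 142 and 239 without untreated or treated wild-type 3.

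In the chromosome 1 stretch, all 16 tested reverse-strand probes rose, by 4.47 to 9.04 on the log2 scale with a median of 5.07. Of the 6 forward-strand probes, 5 rose, with a median over the 6 of 3.26. Probe A_30_P01019537 of chr1:175653557-175671940 (R) stood at -5.88, -6.45 and -5.93 on the untreated wild-type arrays, of which 1 was well above background, and at 3.04, 3.02 and 0.64 on the treated ones. The groups were far apart, and the third treated array stood below the other two. The fitted rise was 8.32 ± 0.74 (limma adjusted p = 0.000129), part of which is set by background readings. Probe A_30_P01021884 of the same interval lay well above background on no untreated wild-type array (-6.80, -8.08 and -7.87) and read 2.17, 2.22 and 0.00 after poly(I:C), which put it at least 164-fold higher (adjusted p = 1.54e-05). In the overlapping chr1:175660642-175671878 (R), probe A_30_P01029545 was at least 33.6-fold higher (adjusted p = 0.000483) and A_30_P01030969, detected on all 6 wild-type arrays, rose by 6.46 ± 0.83 (adjusted p = 0.00132).

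Further along, chr1:175705225-175717250 rose too. Its 5 reverse-strand probes all rose, by 4.83 to 7.94, and 3 of its 4 tested forward-strand probes rose, the 4 spanning 1.60 to 4.26. Probe A_30_P01023338 (R), well above background on all 12 arrays, read -4.49, -4.21 and -4.54 without and 2.91, 2.89 and 0.50 with poly(I:C) in wild-type cells, a rise of 6.51 ± 0.72 (limma adjusted p = 0.000534). The 2 groups did not overlap, and the third treated array was again the lowest. Its neighbours A_30_P01022549 and A_30_P01027543 rose by 7.94 ± 1.01 and 7.85 ± 0.82.

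A second group of transcripts rose in both genotypes. In chr3:96074625-96086375, all 5 forward-strand probes rose, by 3.83 to 5.00, and lay well above background on all 12 arrays. Probe A_30_P01027709 read -2.93, -3.32 and -2.81 without and 2.01, 1.88 and 2.06 with poly(I:C) in wild-type cells, a rise of 5.00 ± 0.26 (limma adjusted p = 5.30e-06). The treated arrays lay within 0.2 of each other and far above the untreated ones. None of the 3 tested reverse-strand probes of this interval passed in wild-type cells (-0.06 to 0.81). In chr13:21860993-21862345 (F) all 3 probes rose, by 2.71 to 6.41, and A_30_P01020702 was at least 25.9-fold higher (adjusted p = 0.00137), at -8.01, -7.71 and -6.15 untreated, on no array above background, and -1.16, -0.87 and -1.58 after poly(I:C).

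Several short intervals were among the largest rises. The 211 bp interval chr12:25852471-25852681 (F) held A_30_P01019508, which read -5.72, -5.16 and -5.30 without and -1.15, -1.19 and -1.58 with poly(I:C), a rise of 4.08 ± 0.22 (limma adjusted p = 5.30e-06). The other tested probe of that interval did not pass and stood at -0.52. In the 914 bp interval chr2:128249388-128250301 (F) A_30_P01028201 rose by 5.95 ± 0.78 (adjusted p = 0.00150), from -5.67, -5.00 and -5.38 to 1.03, 1.10 and -0.32. Of its 3 tested probes 2 rose, and the groups of the third, A_30_P01021996, did not overlap either (2.73 ± 0.69, adjusted p = 0.0563). Both probes of chr6:3283191-3284581 (R) rose, by 6.22 and 6.59, and A_30_P01019832 was at least 29.5-fold higher (adjusted p = 2.29e-05). The only tested probe of chr17:64063362-64066067 (R) rose by 5.14 ± 0.67, and that of chr7:111526943-111545093 (R) by 6.76 ± 0.73. The 3 tested forward-strand probes of the latter interval stood between -0.71 and -0.36 and did not pass.

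At chr1:85117750-85129200, all 3 tested forward-strand probes rose, by 3.51 to 6.26, and none of the 5 reverse-strand probes was kept. Among called rises, 53 intervals had probes of both strands tested, and 8 of them were called on both. These 8 included both chromosome 1 intervals with forward-strand probes, chr11:119250824-119286324 (forward 1.42 to 2.84, reverse 1.74 to 4.92) and chr6:57583950-57624216 (forward 3.06 to 3.13, reverse 2.11 to 3.59), in which all tested probes rose. The last 2 were picked after their values were seen.

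Falls were smaller. Probe A_30_P01022698 of chr2:143988645-143993945 (R) fell most among those with a signal in both groups, from -4.62, -4.31 and -4.88 to -5.58, -6.32 and -6.39, a change of -1.49 ± 0.24 (limma adjusted p = 0.00530). Only 1 treated array was well above background there, and the other 4 tested reverse-strand probes did not pass. At chr11:95627874-95640824, 3 of 9 tested forward-strand probes and 2 of 7 reverse-strand probes fell, and the values of all of them ran from -0.96 to -0.45 and from -0.91 to -0.66. A_30_P01031417 (F) there read 1.08, 0.96 and 0.49 without and -0.20, -0.15 and 0.09 with poly(I:C), a change of -0.93 ± 0.19 (adjusted p = 0.0180). Calls were also made at chr7:134369091-134376366 (R), where 3 of 4 tested probes fell and A_30_P01033650 changed by -0.92 ± 0.19. Single probes fell at chr5:123582742-123588117 (R, -0.93), chr15:85510625-85511265 (F, -0.91), chr1:85300475-85331475 (R, -1.11) and chr6:31267612-31293337 (F, -1.25 for A_30_P01022692). The last call was kept in 5 of 24 alternatives and that at chr1:85300475-85331475, probe A_30_P01017544, in 9 of 23, and none of the named falls was kept in all alternatives. The 3 largest bounds were at least 2.36-fold lower for A_30_P01032902 of chr17:15111725-15139800 (F), 1.55-fold for A_30_P01032504 of chr13:98571741-98603323 (R) and 1.34-fold for A_30_P01030531 of chr12:72103832-72116875 (R).

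The second comparison asked the same of ΔC cells. The probes A_30_P01028201, A_30_P01027709, A_30_P01019508, A_30_P01020702 and A_30_P01029335, of intervals on chromosomes 2, 3, 12, 13 and 17, rose there too, and the chromosome 1 stretch was called at 3 of its 22 probes, where 1.53% of all probes rose. Falls were almost absent. The largest rise with a signal in both groups was that of A_30_P01028201 at chr2:128249388-128250301 (F), which read -5.35, -4.75 and -5.12 without and 2.13, 2.44 and -1.08 with poly(I:C), a rise of 6.24 ± 0.78 (limma adjusted p = 0.00210). All 3 probes of that interval rose in ΔC cells, A_30_P01027580 to at least 34.0-fold above untreated (adjusted p = 0.00509). The third treated array was the lowest for each of them.

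In total, 114 probes in 79 intervals rose and 3 fell in ΔC cells, 1.51% of those tested, against 1.55% of all probes. Among the probes detected on all 12 arrays, 63 rose (1.08%) and 2 fell (0.0342%), against 1.09% and 0.0101% of all such probes. The rises were 1.47% and the falls 0.0386% of the position-named probes, against 1.53% and 0.0227% of all probes. The median log2 change was -0.02, against -0.03 for all probes. The groups did not overlap for 530 probes that were higher and 421 that were lower, where over all probes 7.95% were higher and 7.19% lower. The 3 falls were at chr2:176264400-176302925 (R, A_30_P01032458, -1.23 ± 0.25, adjusted p = 0.0382), chr1:138592780-138622719 (F, A_30_P01032405, -0.63 ± 0.11, adjusted p = 0.0147) and chr2:48805604-48974396 (F, A_30_P01027678, -0.57 ± 0.12, adjusted p = 0.0418). Each was lost with median scaling, and neither of the other 2 probes of the last interval fell. The calls numbered 67 without ΔC untreated 1 or 2, and 65 and 77 without ΔC poly(I:C) 1 or 2. With the authors' deposited table, in which 1 treated ΔC column did not match its array, 4 probes were called, and 61 without that column.

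At chr13:21860993-21862345 (F) all 3 probes rose, by 3.11 to 6.03, and A_30_P01019404 was at least 30.0-fold higher (limma adjusted p = 0.000360). At chr17:64063362-64066067 (R), A_30_P01029335 read -8.18, -7.14 and -5.04 untreated, 1 array of which was above background, and -0.92, -0.45 and -1.31 after poly(I:C), a rise of 5.89 ± 0.67 (adjusted p = 0.00119). At chr12:25852471-25852681 (F), A_30_P01019508 read -5.47, -5.68 and -5.85 without and -1.0, -0.70 and -1.36 with poly(I:C), a rise of 4.65 ± 0.22 (adjusted p = 5.23e-06). The responses of these 2 probes, ΔC minus wild type, differed by 0.75 ± 0.95 and 0.56 ± 0.31, and neither difference passed. At chr3:96074625-96086375 all 5 forward-strand probes rose, by 3.27 to 3.85, and 1 of 3 tested reverse-strand probes did. A_30_P01027709 read -1.14, -1.65 and -2.03 without and 2.36, 2.60 and 1.78 with poly(I:C), a rise of 3.85 ± 0.26 (adjusted p = 5.92e-05). Its untreated level was higher than in wild-type cells, by 1.41 ± 0.26 (adjusted p = 0.00551), and the treated levels differed by 0.26 ± 0.26 and did not pass.

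At chr1:85117750-85129200 all 3 tested forward-strand probes rose in ΔC cells as well, by 3.75 to 4.66, and at chr1:87343550-87362900 A_30_P01027120 (F) rose by 4.70 ± 0.58 (limma adjusted p = 0.00208). The other tested forward-strand probe of the latter did not pass in either genotype (-0.08 and -0.54).

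In the chromosome 1 stretch from 175653557 to 175717250, 3 of the 16 reverse-strand probes rose in ΔC cells and none of the 6 forward-strand probes did. The reverse-strand values spanned 1.92 to 5.43 with a median of 2.44, and the forward-strand values -1.15 to 1.55 with a median of 0.66. A_30_P01019537 read -8.48, -8.58 and -6.16 untreated, on no array above background, and -1.99, -2.91 and -2.02 after poly(I:C), at least 13.8-fold above the untreated arrays (limma adjusted p = 0.00363). A_30_P01023338 read -4.81, -5.03 and -5.41 without and -0.75, -1.72 and -3.47 with poly(I:C), groups that did not overlap but a rise of 3.10 ± 0.72 that did not pass (adjusted p = 0.0769).

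The 2 responses set different arrays against each other, but both were called from the same fit of all arrays, with a shared error estimate and detection filter. Leaving out ΔC untreated 2 or 3 moved the wild-type calls from 233 to 190 or 252. The overlap of the call lists is therefore not independent agreement. Of the 192 rises in wild-type cells, 81 were also called in ΔC cells, which is 42.2% of the wild-type and 71.1% of the ΔC rises, and 187 of the 192 had the same sign. Over all probes 423 rises were shared, 33.5% of the wild-type and 78.6% of the ΔC rises. Across the 7763 probes, which are not independent replicates and may share targets, the changes correlated at r = 0.589. The median change of the 192 was 2.12 in wild-type and 1.5 in ΔC cells, where the first was used to pick them. Of the 41 falls, 39 were below 0 in ΔC cells and 0 were called, with 3 falls called in ΔC cells by limma in all and 759 position-named probes at an unadjusted p under 0.05 there in either direction.

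The difference between the responses was tested directly. It passed for 1 position-named probe (0.0129%, against 0.0114% of all probes), while 468 had an unadjusted p under 0.05. Over all probes 0.00284% were called higher and 0.00852% lower, and over those detected on all 12 arrays 0.00338% and 0.00676%. The median difference, ΔC minus wild type, was 0.19, against 0.11 over all probes. The probe was A_30_P01032405 of chr1:138592780-138622719 (F), which moved in opposite directions in the 2 genotypes. It read -4.26, -4.11 and -4.08 untreated and -3.48, -3.47 and -3.48 treated in wild-type cells, and -3.73, -3.73 and -3.88 untreated and -4.40, -4.39 and -4.43 treated in ΔC cells. No 2 groups overlapped, and the 3 treated arrays of a genotype lay within 0.05 of each other. The change was 0.67 ± 0.11 in wild-type and -0.63 ± 0.11 in ΔC cells, and the difference -1.30 ± 0.15 (limma adjusted p = 0.0427). The other probe of this interval was not kept, and the call was kept in 4 of 23 alternatives, with an adjusted p of 0.00804 to 0.394.

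For the chromosome 1 stretch the difference did not pass at any named probe. It was -3.94 ± 0.81 at A_30_P01021884 (limma adjusted p = 0.286), -2.89 ± 1.04 at A_30_P01019537 (0.755) and -3.41 ± 1.02 at A_30_P01023338 (0.591). The comparison of the treated groups, which shares arrays with both responses, was called at all 22 probes and is given with the genotype results. Ifit1 differed there as well, at -2.01 ± 0.47 in treated ΔC against treated wild-type cells (adjusted p = 0.0171).

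The third comparison set untreated ΔC against untreated wild-type cells, and the fourth did so after poly(I:C). Without poly(I:C) the probes named by the rule lay on chromosomes 4, 8, 9 and 10 among the lower and 10, 11, 13, 15 and 16 among the higher ones. With poly(I:C) the chromosome 1 stretch was among the lower ones, where 6.43% of all probes were lower. In the fibroblast marker list, 4 of 10 genes were lower in untreated and 3 in treated ΔC cells, and the log2 of its summed level ran from 8.61 to 9.50 in untreated ΔC against 10.04 to 10.26 in untreated wild-type cells. In treated cells it ran from 8.60 to 9.49 in ΔC against 9.74 to 9.97 in wild-type cells. Of 5 epithelial markers, Epcam and Cdh1, well above background on every ΔC and no wild-type array, were at least 7.71-fold and 1.57-fold higher in untreated ΔC cells, Krt8 was lower (-1.91), and the summed level ran from 0.63 to 1.85 in untreated ΔC and from -1.27 to 2.19 in untreated wild-type cells. After poly(I:C), Epcam and Cdh1 were at least 7.36-fold and 1.73-fold higher, with sums of 0.39 to 1.59 in ΔC and -1.0 to 1.87 in wild-type cells. Of 5 leukocyte markers 3 were lower in untreated and 1 in treated ΔC cells (summed level 3.32 to 3.70 against 4.30 to 4.56, and 3.39 to 3.69 against 3.83 to 4.04). Of 4 endothelial markers Cdh5 and Tek lay above background on no array, and the summed level ran from 3.63 to 3.98 against 3.92 to 4.47 untreated and from 3.63 to 4.16 against 3.97 to 4.02 after poly(I:C). The part of these markers in the genotype results was not tested, and fewer cells of a type and less RNA per cell cannot be told apart.

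In untreated cells 304 position-named probes in 164 intervals were higher and 356 in 265 intervals lower in ΔC cells, 8.50% of those tested, against 15.0% of all probes. The higher calls were 3.92% and the lower calls 4.59%, against 7.42% and 7.59% of all probes. Of those detected on all 12 arrays, 209 were higher (3.57%) and 287 lower (4.91%), against 6.22% and 7.92%. The median difference was -0.27, against -0.15 over all probes. The groups did not overlap for 629 higher and 1287 lower probes, where over all probes 13.7% were higher and 20.1% lower. The calls numbered 356 without wild-type untreated 1, 289 and 299 without ΔC untreated 1 or 2 and 1105 (302 against 803) without ΔC untreated 3. Which direction held more calls turned with the processing: 46.1% were higher as scaled here, 54.2% (252 against 213) with each array scaled to its median and 18.3% (187 against 834) with normexp background correction.

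After poly(I:C) 417 probes in 233 intervals were higher and 282 in 178 intervals lower in ΔC cells, 9.00% of those tested, against 14.8% of all probes. The higher calls were 5.37% and the lower calls 3.63%, against 8.41% and 6.43% of all probes. Of those detected on all 12 arrays, 269 were higher (4.60%) and 213 lower (3.64%), against 7.09% and 6.35%. The median difference was -0.06, against -0.02 over all probes. The groups did not overlap for 867 higher and 942 lower probes, where over all probes 17.4% were higher and 17.0% lower. Which direction held more calls turned with the scaling: 59.7% of them were higher as scaled here, 40.2% (246 against 366) with each array scaled to its median and 40.8% (321 against 465) with quantile normalization. The calls numbered 362 and 343 without wild-type poly(I:C) 1 or 2 and 405 without ΔC poly(I:C) 1.

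On chromosome 8, 6 forward-strand probes of 2 overlapping intervals, chr8:89996710-90049453 and chr8:90048940-90049461, were lower in ΔC cells, at -6.23 to -5.75 log2 units untreated. A_30_P01022123 read 2.73, 2.97 and 2.81 in untreated wild-type and -3.08, -2.39 and -3.27 in untreated ΔC cells, a difference of -5.75 ± 0.27 (limma adjusted p = 1.16e-06). After poly(I:C) it read 2.72, 2.88 and 2.62 against -2.66, -2.28 and -3.30, a difference of -5.49 ± 0.27 (adjusted p = 1.91e-06). Poly(I:C) changed it in neither genotype beyond the spread (-0.10 and 0.17). A_30_P01021540 of the longer interval lay above background on no ΔC array and was at least 15.3-fold lower untreated and 10.6-fold lower after poly(I:C). The other 3 forward-strand probes tested in overlapping intervals and the 2 reverse-strand probes there did not pass.

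Chromosome 9 showed a like difference with more spread. In chr9:78107225-78118850 and chr9:78104935-78116974 3 of 4 tested forward-strand probes were lower in ΔC cells, at -4.75 to -4.25 log2 units untreated, and neither tested reverse-strand probe passed. A_30_P01028766 read 1.26, 3.29 and 1.17 in untreated wild-type and -4.42, -1.61 and -2.49 in untreated ΔC cells, a difference of -4.75 ± 0.89 (limma adjusted p = 0.00596). After poly(I:C) it read 1.45, 3.35 and 1.19 against -3.25, -1.20 and -2.83. In all 4 groups the array numbered 2 was the highest, and the genotypes did not overlap.

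In chr4:146017200-146029700 all 4 forward-strand probes were lower in ΔC cells, at -4.88 to -2.71 untreated and -3.90 to -2.16 after poly(I:C). A_30_P01021931 read -3.86, -2.41 and -2.82 in untreated wild-type cells, lay above background on no untreated ΔC array and was at least 8.35-fold lower there (limma adjusted p = 0.000211). The only tested of its 5 reverse-strand probes did not pass (-0.85). In chr10:120069727-120136259 (R) all 3 probes were lower in untreated ΔC cells, at -3.57 to -2.63, and 2 of them after poly(I:C).

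Among the transcripts higher in ΔC cells, A_30_P01022605 of chr11:96112907-96125798 (F) differed most. It lay above background on no wild-type array (-8.17 to -6.89) and read -0.72, -0.57 and -0.20 in untreated and -0.43, -0.41 and -0.17 in ΔC cells given poly(I:C). It was at least 42.2-fold higher untreated (limma adjusted p = 2.17e-06) and at least 47.8-fold higher with poly(I:C) (adjusted p = 2.31e-06). The other tested probe of that interval did not differ beyond the spread (-0.11 untreated and 0.34 after poly(I:C)). Further along the same chromosome, all 3 probes of the 266 bp interval chr11:96175764-96176029 (F) were higher in ΔC cells, by 2.99 to 4.35 untreated and 3.68 to 4.62 after poly(I:C). A_30_P01019818 read -5.64, -6.42 and -5.28 in untreated wild-type and -1.26, -1.37 and -1.92 in untreated ΔC cells. Of 13 tested probes in intervals that overlap the window chr11:96112907-96176029, 6 forward-strand and 1 reverse-strand probe were higher in untreated ΔC cells. That window was drawn around A_30_P01022605 and A_30_P01019818, which are among them.

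On chromosome 13 the wild-type arrays disagreed among themselves. All 4 reverse-strand probes of chr13:58474388-58487288 and both of the overlapping chr13:58481189-58488048 were higher in ΔC cells, by 3.31 to 3.65 untreated and 3.19 to 3.62 after poly(I:C). A_30_P01030036 read -2.53, -2.88 and 0.31 in untreated wild-type, -2.68, -2.98 and 0.37 in treated wild-type, 1.92, 1.67 and 1.83 in untreated ΔC and 1.79, 1.39 and 1.86 in treated ΔC cells. Arrays numbered 3 of the wild type lay about 3 log2 units above the other wild-type arrays with and without poly(I:C), yet below all ΔC arrays. The difference was 3.51 ± 0.92 untreated (limma adjusted p = 0.0294) and 3.44 ± 0.92 after poly(I:C) (adjusted p = 0.0312). The first call was lost on leaving out wild-type untreated 1 or 2 or any untreated ΔC array, with no filter and with the authors' table, and its adjusted p spanned 9.15e-05 to 0.104 over the alternatives. The second was likewise lost without wild-type poly(I:C) 1 or 2 or any treated ΔC array, at an adjusted p of up to 0.237. Of the 4 forward-strand probes 1 was higher in ΔC cells.

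All 3 probes were higher in untreated ΔC cells at chr10:62267317-62269871 (R, 2.58 to 3.14), chr15:100909469-100910253 (F, 1.90 to 3.50) and chr16:17833211-17835112 (F, 3.47 to 4.79), and all 3 of each were higher after poly(I:C). The bounds there were at least 9.34-fold for A_30_P01027275 on chromosome 15 and at least 8.16-fold for A_30_P01017503 on chromosome 16. Both tested probes of chr15:102926581-102932542 (R) were higher as well, and A_30_P01020836 was at least 7.47-fold higher untreated and 11.0-fold higher after poly(I:C) (limma adjusted p = 2.79e-06).

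In treated cells, all 22 probes of the chromosome 1 stretch were lower in ΔC than in wild-type cells. The 16 reverse-strand probes stood at -4.54 to -3.17 and the 6 forward-strand ones at -3.80 to -1.92. Without poly(I:C) none of the 22 was called (-1.66 to 0.60), but some untreated levels there were background readings. A_30_P01021884 and A_30_P01029545 lay well above background on no untreated array of either genotype, so that a difference below background could not be measured there. At A_30_P01019537 the treated groups read 3.04, 3.02 and 0.64 against -1.99, -2.91 and -2.02, a difference of -4.54 ± 0.74 (limma adjusted p = 0.00284). The single reverse-strand probe of chr7:111526943-111545093, A_30_P01024661, showed the same order, at 1.44, 1.27 and -1.01 against -1.59, -2.52 and -4.00 (-3.27 ± 0.73, adjusted p = 0.0140). Neither group pair overlapped. The call at A_30_P01022549 (-4.47 ± 1.01, adjusted p = 0.0148) was lost without wild-type poly(I:C) 1 or 2, at an adjusted p of up to 0.0654.

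The 2 genotype comparisons set different arrays against each other, but their calls also came from the same fit and detection filter. Leaving out wild-type poly(I:C) 2 or 3 moved the untreated calls from 660 to 530 or 697, so that these lists are not independent either. Of the 304 probes higher in untreated ΔC cells 221 were also higher after poly(I:C), which is 72.7% of the first and 53.0% of the second list, against 75.9% and 66.9% over all probes. Of the 356 lower ones 135 were also lower, 37.9% and 47.9% of the lists, against 51.1% and 60.3% over all probes. Across the 7763 probes the differences correlated at r = 0.665. Chromosome 18 had the lowest median difference of the 19 autosomes in both comparisons, at -0.39 untreated and -0.21 after poly(I:C) over 253 probes. Untreated, 23 of its probes were lower (9.09%) and 1 higher (0.395%), against 4.59% and 3.92% of the position-named probes and 7.59% and 7.42% of all probes. After poly(I:C), 22 were lower (8.7%) and 3 higher (1.19%), against 3.63% and 5.37% of the position-named probes and 6.43% and 8.41% of all probes. On chromosome 17, of 535 probes, 26 were lower (4.86%) and 1 higher (0.187%) untreated, against the same 4.59% and 3.92% of the position-named probes. After poly(I:C), 17 were lower (3.18%) and 15 higher (2.8%) there, against 3.63% and 5.37% of the position-named probes. No test was made between chromosomes.

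How far probes of 1 interval and strand went together was described for the 1187 such pairs with at least 3 tested probes. For rises in wild-type cells 70 of these held a called probe, 13 of them had every tested probe called and 38 had exactly 1 called. For ΔC cells these numbers were 45, 8 and 30. For transcripts higher in untreated ΔC cells they were 124, 23 and 59, and for lower ones 160, 15 and 111. With poly(I:C) they were 158, 29 and 69 for higher and 112, 23 and 66 for lower ones. Calls of the opposite direction fell into the same interval and strand in 1, 0, 3 and 1 cases. Of intervals called with both strands tested, both strands were called in 1 of 18 for falls in wild-type cells, 3 of 37 for rises in ΔC cells, 6 of 65 and 9 of 135 for higher and lower transcripts in untreated ΔC cells, and 10 of 87 and 9 of 74 after poly(I:C).

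Long noncoding transcripts that the array names by accession gave a comparison. Of 37 on the list 22 had a probe and 21 were tested. In wild-type cells 5 rose, namely the host transcripts of small nucleolar RNAs Snhg1 (1.37), Snhg5 (0.98) and Snhg12 (1.39), Pvt1, a transcript next to Myc (1.35), and Crnde (0.72), and 0 fell. In ΔC cells 3 rose, namely Snhg1 (1.14), Snhg12 (1.01) and Pvt1 (1.22), and the others did not pass. The imprinted transcripts Mirg and Kcnq1ot1 were higher in ΔC cells, by 1.13 and 1.44 untreated and by 1.35 and 1.18 after poly(I:C), and none was lower by limma's test. Malat1 and Neat1, abundant nuclear transcripts, did not pass in the wild-type response (-0.13 and 0.16). The median over the 21 was 0.16 in the wild-type and 0.11 in the ΔC response.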

How the data were processed

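The data were 12 single-colour arrays. Feature Extraction 10.7.3.1 produced the scanner tables, per the file headers, and the deposited intensity is background-subtracted, not normalized between arrays, and flagged for spots well above background. The authors' deposited table of log2 values has a common column median of 5.28, a highest value of 19.1 and 1 column (ΔC poly(I:C) 1) that correlated less with its own array (0.936) than with untreated wild-type 1 (0.971). Limma was used per the submitters' processing notes, with no version given. Intervals are on mm9, per the file headers; probe sequences and gene annotation of that build were not used here.

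Processed intensities were put on the log2 scale, spots of a probe averaged, and the 75th percentile of each array subtracted. Control and outlier spots were left out, and 0 spots were saturated. All 35200 probes that passed the detection filter were fitted together with limma 3.58.1 (R 4.3.3; 1 coefficient for each group, 8 residual and 2.38 prior degrees of freedom, two-sided, Benjamini-Hochberg, called at an adjusted p under 0.05). The fit was run on simulated arrays with independent errors for each probe, which leave out any shared effect of replicate number or slide. Part of the probes changed there were not called. Errors of log2 changes are standard errors of the fit with 3 arrays per group.

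Probes were named by a rule: per comparison the 8 largest called rises and falls with groups that did not overlap and a signal in each group, and the 3 largest bounds each way, with all probes of their intervals; for the difference the 5 largest each way. The members, lists and rule were chosen with earlier results of these data known. Alternatives were median scaling, quantile normalization, normexp, other filters, replicate number, slide or scan day as a block, only the groups compared, the authors' table, and leaving out arrays. With intensities there is no read depth; precision is limited by the number of arrays.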

Additional observations from a re-analysis of the deposited data

Results flagged for a closer look

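One result was flagged because the response differed between the genotypes by a direct test. Probe A_30_P01032405 of chr1:138592780-138622719 (F) changed by 0.67 ± 0.11 with poly(I:C) in wild-type and by -0.63 ± 0.11 in ΔC cells, a difference of -1.30 ± 0.15 (SE, n = 3 per group, limma adjusted p = 0.0427). It was higher in all 3 treated wild-type arrays and lower in all 3 treated ΔC arrays than in any untreated array of the same genotype. The call was kept in 4 of 23 alternatives.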

How the results depend on the processing

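Of the named calls, none reversed under any alternative. Among all position-named calls some did. With the authors' table, 635 of 699 calls between treated genotypes and 115 of 117 in the ΔC response kept their sign, and without its mismatched column all did. With normexp, 644 of 660 untreated and 691 of 699 treated genotype calls kept theirs. Calls held under every alternative for 9 of 22 named probes in the wild-type response, 0 of 14 in the ΔC response (where the authors' table ended all), 12 of 22 between the untreated and 8 of 22 between the treated genotypes, and 0 of 1 for the difference. In the ΔC response, A_30_P01028201, A_30_P01020702, A_30_P01029335, A_30_P01027120, A_30_P01019508, A_30_P01027709 and A_30_P01019404 were lost with that table only. Their calls held without its mismatched column, and the other named ΔC calls were lost under further alternatives too. For the wild-type response, 88 probes were called with the authors' table and 224 with that table without its mismatched column, against 233. Without all arrays numbered 3, an alternative added after seeing the data, 1033 were called. For the ΔC response, 64 were called with only probes detected on all 12 arrays, 74 with only the groups compared, 4 with the authors' table, 61 with that table without its mismatched column (also added later) and 337 without the arrays numbered 3, against 117. Between untreated genotypes, 1021 were called with normexp, 388 with no filter and 419 with only the groups compared, against 660. There the authors' table gave 133 calls, that table without its mismatched column 744, and 1347 were called without the arrays numbered 3. After poly(I:C), 459 were called with no filter, 105 with the authors' table, 455 with that table less its mismatched column, and 1207 when arrays numbered 3 were dropped, against 699. For the difference, 0 were called with median scaling, quantile normalization, normexp, no filter, a block for slide or for scan day, and the authors' table with or without that column, and 59 without the arrays numbered 3, against 1. The causes were not tested. Leaving out 1 array at a time gave 118 to 496, 65 to 145, 289 to 1105, 343 to 763 and 0 to 29 calls in the same order.

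The labels do not say what a replicate number stands for, so that the main fit did not take the numbers as pairs. The deviations of arrays with the same number correlated at 0.0939 to 0.559 over 12 pairs, all positive. For 12 of 12 arrays the best correlation was with an array of their own number, and the main fit leaves out any such shared effect. With the replicate number as a block, 1256 probes were called between untreated genotypes, 983 after poly(I:C), 309 and 141 in the responses and 2 for the difference. All 233, 117, 660 and 699 calls, made partly on these arrays, had the same sign on the 2 arrays of a shared slide and on the 3 arrays of a shared scan day. Median scaling moved the median of all probes from -0.03 to -0.17 in the ΔC response, from -0.02 to -0.17 between treated genotypes and from 0.11 to -0.10 for the difference. Probes near background have levels set partly by background readings, so that small differences there were not detectable.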

Other observations

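At some intervals the arrays of 1 replicate number stood apart in both groups of a genotype. Counted over all 7763 probes, the array numbered 3 lay at least 2 log2 units above both others with and without poly(I:C) for 6 probes of 2 intervals in wild-type cells (0.0773%, against 0.151% of all probes) and for 18 probes of 8 intervals in ΔC cells (0.232%, against 0.347%). The array numbered 2 lay as far below both others for 1 probe in ΔC cells, and no array numbered 1 stood apart in this way. The 6 wild-type probes were the reverse-strand probes of chr13:58474388-58487288 and chr13:58481189-58488048.

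In ΔC cells, 8 of the 18 probes lay in chr15:32167516-32174417 and chr15:32167516-32174427. There A_30_P01029468 read -2.23, -3.20 and 1.22 in untreated and -2.42, -3.41 and 1.02 in treated ΔC cells, while the wild-type arrays lay between -5.51 and -3.92. At chr9:121845920-121858120, A_30_P01026237 read -3.87, -4.81 and -0.77 untreated and -4.10, -4.74 and -0.53 treated in ΔC cells, against -0.92 to -0.43 on the wild-type arrays. There the ΔC arrays numbered 3 lay among the wild-type values and the other ΔC arrays below every one of them. These intervals were picked after their values were seen, no test was made, and what sets these arrays apart was not tested.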
